A study of Rattus norvegicus with 8 samples.

Results

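Histone genes were measured in the 2 compartments of rat hippocampal neuron cultures, in control cultures and in separate cultures under a drug that chronically raises network activity. The members were every symbol of the count table that begins with Hist, a cluster number and h, which gave 35 genes, and 5 genes of histone variants, H2afx, H2afy, H2afz, H3f3a and H3f3b. They are 40 of 28909 symbols. The 35 cluster genes are called replication-dependent here from their symbols alone and comprised 6 H1, 12 H2A, 10 H2B, 3 H3 and 4 H4 genes. Of the 40 genes, 34 had more than 20 reads in at least 2 libraries and were tested. These were all 5 variants and 29 cluster genes, of which 5 code for H1, 8 for H2A, 9 for H2B, 3 for H3 and 4 for H4.

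Primary hippocampal neurons from embryonic Sprague-Dawley rats were grown on porous filter inserts that hold the cell bodies on one side and let axons and dendrites pass to the other. Cultures received the GABA-A receptor antagonist picrotoxin (PTX) for 48 h, from day in vitro 18 to day 20. Control cultures received the vehicle, ethanol. Total RNA of somata and of processes was depleted of ribosomal RNA and sequenced, with 2 libraries for each of 4 groups (somata control, somata PTX, processes control, processes PTX). The sources used here do not say whether the 2 libraries of a group came from separate preparations, so p-values measure only the spread between these libraries, which may be technical.

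DNA in the nucleus is wound around octamers of the core histones H2A, H2B, H3 and H4, and the linker histone H1 binds the DNA between them. The clustered genes are transcribed mainly while DNA is replicated, and most of their mRNAs end in a stem-loop bound by Slbp in place of a poly(A) tail, so that depletion of ribosomal RNA keeps messages that poly(A) selection would lose. Most variant genes lie outside the clusters, give polyadenylated mRNAs through the cell cycle and supply new histones to cells that no longer divide, such as neurons. H2afx is an exception among the variants, since it gives a stem-loop mRNA linked to replication as well as a polyadenylated one.

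Short promoter windows are shown because the clustered genes share control elements by family, which the selection of the members did not use. RefSeq promoters of assembly GRCr8, 300 bases each with 250 before and 50 after the start, were searched on both strands for the octamer ATTTGCAT, for CCAAT, for TATAAA and for the H1 box AAACACA, of which none contains another. By symbol or synonym, 33 of the 40 genes matched a single RefSeq gene and 31 had a window (27 cluster genes and 4 variants). The octamer was found in 5 of 8 H2B windows, 5 of 11 H2A windows, none of the 8 windows of H1, H3 and H4 genes, the window of the variant H3f3b, and 1.78% of all 33469 windows. The 5 H2B octamers follow, each within 30 bases of the coding strand with the octamer in capitals, for Hist1h2bk at chr17:47181970-47181999 (minus strand), Hist1h2bd at chr17:47489080-47489109 (minus), Hist1h2ba at chr17:41599777-41599806 (plus), Hist2h2be at chr2:186469394-186469423 (plus) and Hist3h2bb at chr10:44233108-44233137 (minus).
Hist1h2bk: cacttcatcttATTTGCATgcgaagctcta
Hist1h2bd: ctttccactggATTTGCATaagagcgtgtc
Hist1h2ba: gaattccccttATTTGCATacaaggaacat
Hist2h2be: tttgagacctaATTTGCATaacatgtttat
Hist3h2bb: gagccctcctaATTTGCATatgccttaccc
The octamers begin 48, 90, 124, 47 and 61 bases before the start, in that order. Hist1h2ba and Hist2h2be are transcribed away from an H2A neighbour, Hist1h2aa and Hist2h2ac, so that each pair shares its octamer on opposite strands. The starts lie 240 and 226 bases apart. Hist1h2ai and Hist1h2bo form another pair of this kind, with 264 bases between the starts and no octamer in either window.

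The H1 box is shown for the linker histone genes, where 3 of 4 windows held it against 5 of all 27 windows of cluster genes and 6.99% of all windows. Its capitals mark AAACACA for Hist1h1b at chr17:47421747-47421776 (plus strand), Hist1h1e at chr17:41914296-41914325 (plus) and Hist1h1t at chr17:41856045-41856074 (minus). The window of Hist1h1a, the linker gene that changed most with PTX, held no AAACACA and is shown with TATAAA in capitals at chr17:41794883-41794912 (minus).
Hist1h1b: tggtgactaacAAACACAatttgggattgt
Hist1h1e: tgaggtgtaacAAACACAactccgcatcag
Hist1h1t: tgggggaaaagAAACACAaatgccccttcc
Hist1h1a: cggccctgctcTATAAAtacgccgcgagga
The H1 boxes begin 117, 118 and 103 bases before the start and the TATAAA of Hist1h1a 33 bases before it. CCAAT was present in 24 of 27 windows of cluster genes and 37.5% of all windows, and TATAAA in 18 of 27 and 14.2%. The 2 H4 windows, of Hist1h4b and Hist1h4m, held none of the 4 strings. A match is a description of these letters and was not tested as a binding site.

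The libraries held 12290890 to 18455662 counts. Mitochondrial genes took 22.6% to 26.7% of the counts in somata and 68.5% to 72.5% in processes, and the median tested gene had 268 to 319 reads per library in somata and 96 to 110 in processes, so changes were less precise in processes. The small nuclear RNA entries RF00003 and RF00004, which mark nuclear material, were lower in processes of control cultures by log2 fold changes of -4.26 and -4.32, and the dendritic mRNAs Camk2a and Map2 were higher by 2.55 and 2.30. The cultures also held glial RNA. Of 8 tested astrocyte markers, 4 were higher and 1 was lower in processes of control cultures, against 25.8% and 21.9% of all genes. Gfap was higher by 2.60, although Slc1a2 and Aldoc, also among the 4, turned below 0 with scaling by library size only. Slc1a3 lay the other way, at 861 and 972 CPM in somata control and 602 and 643 CPM in processes control. The summed level of the astrocyte markers was 3103 to 4327 CPM in somata and 11368 to 14825 CPM in processes. Gfap alone gave 1057 to 1781 CPM of it in somata and 7698 to 11111 CPM in processes. Microglia markers totalled 6 to 58 reads per library. Of the endothelial markers Cldn5 had no reads, and Kdr, the one tested, had 82 and 59 reads in somata control, 226 and 171 in somata PTX and 13 to 28 in processes, and rose with PTX in somata (log2 fold change 1.41, adjusted p = 0.0102). A difference in histone RNA may reflect how many cells of a type were present or how much RNA each held, which cannot be told apart in these bulk libraries.

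**Figure D1:**
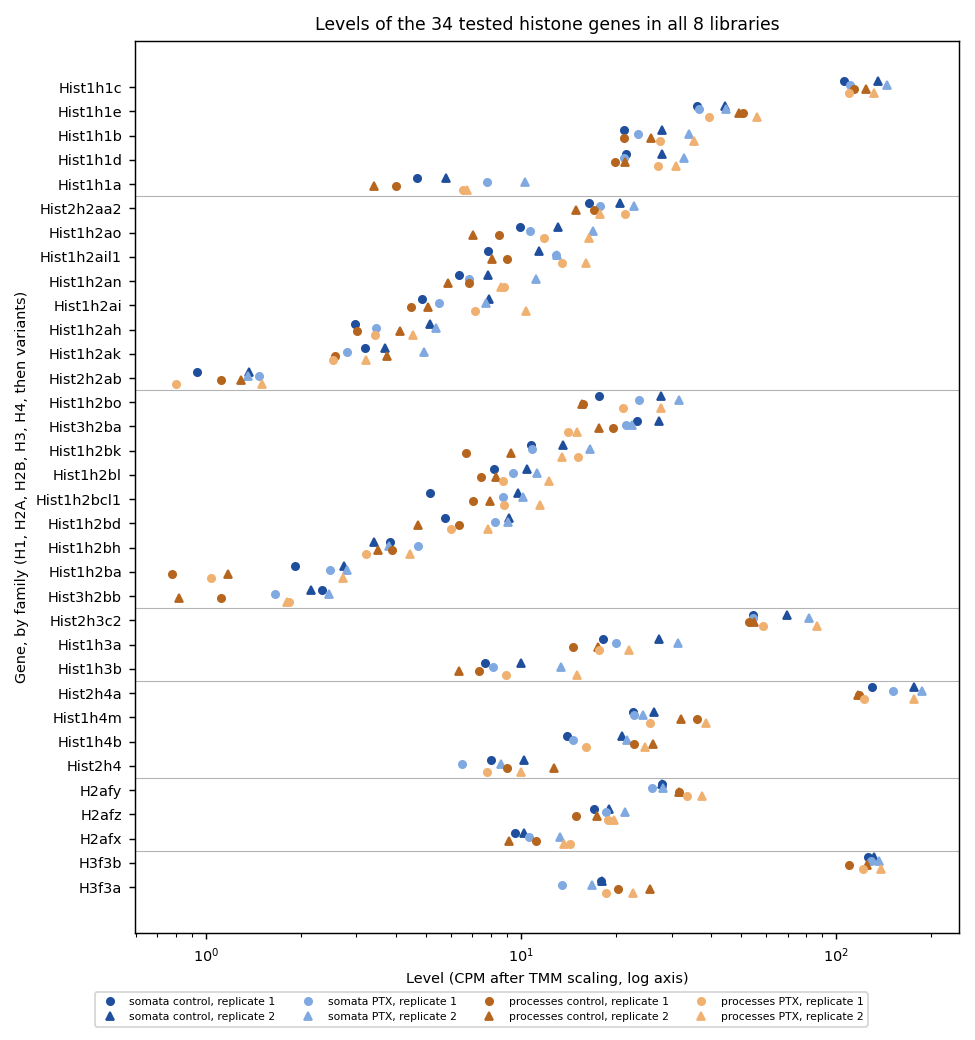
Level of each of the 34 tested histone genes in CPM after TMM scaling (read counts divided by a scaled library total, log axis), grouped by family with the variants at the bottom, with circles for replicate 1 and triangles for replicate 2 in the colour of the group. Within many genes the 8 libraries lie close together, and others spread more widely, among them Hist1h1a (3.41 to 10.3 CPM). Hist1h2ba and Hist3h2bb also spread widely, with processes control libraries at 0.781 to 1.17 CPM against 1.91 to 2.74 CPM in somata control.

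Histone messages were present in both compartments. In CPM after TMM scaling, which divides each count by a library total adjusted with edgeR's TMM factor, the 35 cluster genes summed to 577 and 762 in somata control, 631 and 830.5 in somata PTX, 593 and 611 in processes control and 617 and 813 in processes PTX. In both somata groups and in processes PTX the library of replicate 2 was clearly the higher, and the 2 libraries of processes control were close. The 5 variants summed to 198 and 207, 197 and 216, 188 and 209, and 207 and 232 CPM in the same order. The ratio of cluster gene reads to variant reads was 3.30 ± 0.548 in somata control and 3.52 ± 0.457 in somata PTX (SD, n = 2). In processes it was 3.03 ± 0.166 in control and 3.25 ± 0.370 in PTX. The ratios overlapped between control and PTX of each compartment and between the compartments under each treatment. Both libraries of processes control (3.15 and 2.92) lay below both of somata PTX (3.20 and 3.85).

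As a share of all counts, the cluster genes took 0.123% in somata control and 0.0316% in processes control. Of the counts outside the mitochondrial genome they took 0.165% and 0.108%, so most of the gap in the first pair of shares went with the mitochondrial counts of the process libraries. The 6 genes that were not tested, Hist1h1t, Hist1h2aa, Hist1h2af, Hist2h2aa3, Hist2h2ac and Hist2h2be, had at most 18 reads in any library. Of these, Hist1h1t and Hist1h2aa code for testis types of H1 and H2A. Hist2h2be had 9, 17, 14 and 18 reads in the 4 somata libraries and 2, 1, 0 and 2 in the 4 process libraries.

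**Figure D2:**
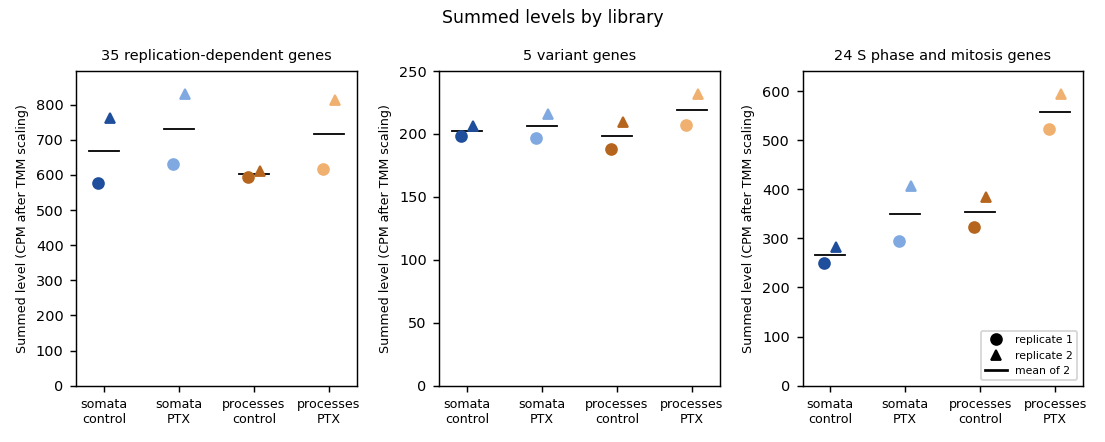
Summed level (CPM after TMM scaling) of the 35 cluster genes, the 5 variants and 24 S phase and mitosis genes in each library, with circles for replicate 1, triangles for replicate 2 and a line at the mean of 2. The S phase sum is higher in both PTX libraries than in both control libraries of each compartment, and the sums of the cluster genes overlap between control and PTX in somata but not in processes.

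The first comparison asked which histone genes changed in somata over 48 h of PTX. In the quasi-likelihood test of edgeR, adjusted by Benjamini-Hochberg over 14309 genes, 1 histone gene rose, Hist1h1a, and none fell, against 2.09% of all genes that rose and 1.5% that fell. Hist1h1a codes for a linker histone H1 subtype. Its level was 4.68 and 5.76 CPM in somata control and 7.80 and 10.3 CPM in somata PTX, a log2 fold change of 0.79 (SE 0.19, adjusted p = 0.0459). Both PTX libraries lay above both control libraries. The call was lost when any 1 of the 8 libraries was left out (log2 fold change 0.57 to 0.97), with DESeq2 and with only the 4 libraries compared. A block for the replicate number lowered the adjusted p to 0.000933, and without somata PTX replicate 2 the blocked fit called no histone gene.

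The other linker genes of the somata differed less than their replicates. Hist1h1c, one of the major H1 genes, was at 106 and 136 CPM in somata control and 111 and 145 CPM in somata PTX (log2 fold change 0.08). Hist1h1e was at 36.3 and 44.4 CPM and 36.6 and 44.6 CPM (0.01). In both genes replicate 2 was the higher library in control and in PTX, and the groups overlapped. Hist1h1b was at 21.2 and 28 CPM against 23.6 and 34 CPM (0.22) and Hist1h1d at 21.5 and 28 CPM against 21.2 and 32.8 CPM (0.12), again with overlap.

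The core histone genes of the somata followed the same course, with groups that mostly overlapped. Hist2h4a, an H4 gene, was at 129.6 and 176 CPM in somata control and 151 and 187 CPM in somata PTX (log2 fold change 0.15). Hist2h3c2, an H3 gene, was at 54.6 and 69.8 CPM and 54.2 and 82.1 CPM (0.13), and Hist1h2bo, an H2B gene, at 17.6 and 27.8 CPM and 23.6 and 31.8 CPM (0.28). None of the 3 passed the test. Over the 29 cluster genes, the log2 fold change was above 0 for 25, with a median of 0.16 against -0.01 over all genes tested, and the family medians were 0.12 for H1, 0.20 for H2A, 0.17 for H2B, 0.16 for H3 and 0.00 for H4. In somata 2 of the 29 lay wholly above the controls with PTX and 1 wholly below, against 24% and 25% of all genes. With the replicate block Hist1h2ail1, an H2A gene outside the naming rule, joined Hist1h1a (log2 fold change 0.43, SE 0.18, adjusted p = 0.258 without and 0.0337 with the block), against a background of 7.21% higher and 6.79% lower with the block.

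None of the 5 variants was called with PTX in somata. H2afx, whose protein is phosphorylated around DNA breaks, was at 9.56 and 10.2 CPM in control and 10.6 and 13.3 CPM in PTX (log2 fold change 0.27, SE 0.15, adjusted p = 0.462). H3f3a, which codes for the H3 replacement variant, was at 17.9 and 18 CPM in control and 13.5 and 16.7 CPM in PTX (-0.25, SE 0.15, adjusted p = 0.519). The PTX libraries lay above the controls for H2afx and below them for H3f3a, without passing the test. H3f3b, which codes for the same protein as H3f3a, was at 126 and 131 CPM against 128 and 136 CPM (0.04). H2afz, a variant found at promoters, was at 17 and 19 CPM against 18.6 and 21.4 CPM (0.14), and H2afy, macroH2A, at 28 and 28 CPM against 26 and 28.2 CPM (-0.05), all 3 with overlap.

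**Figure D3:**
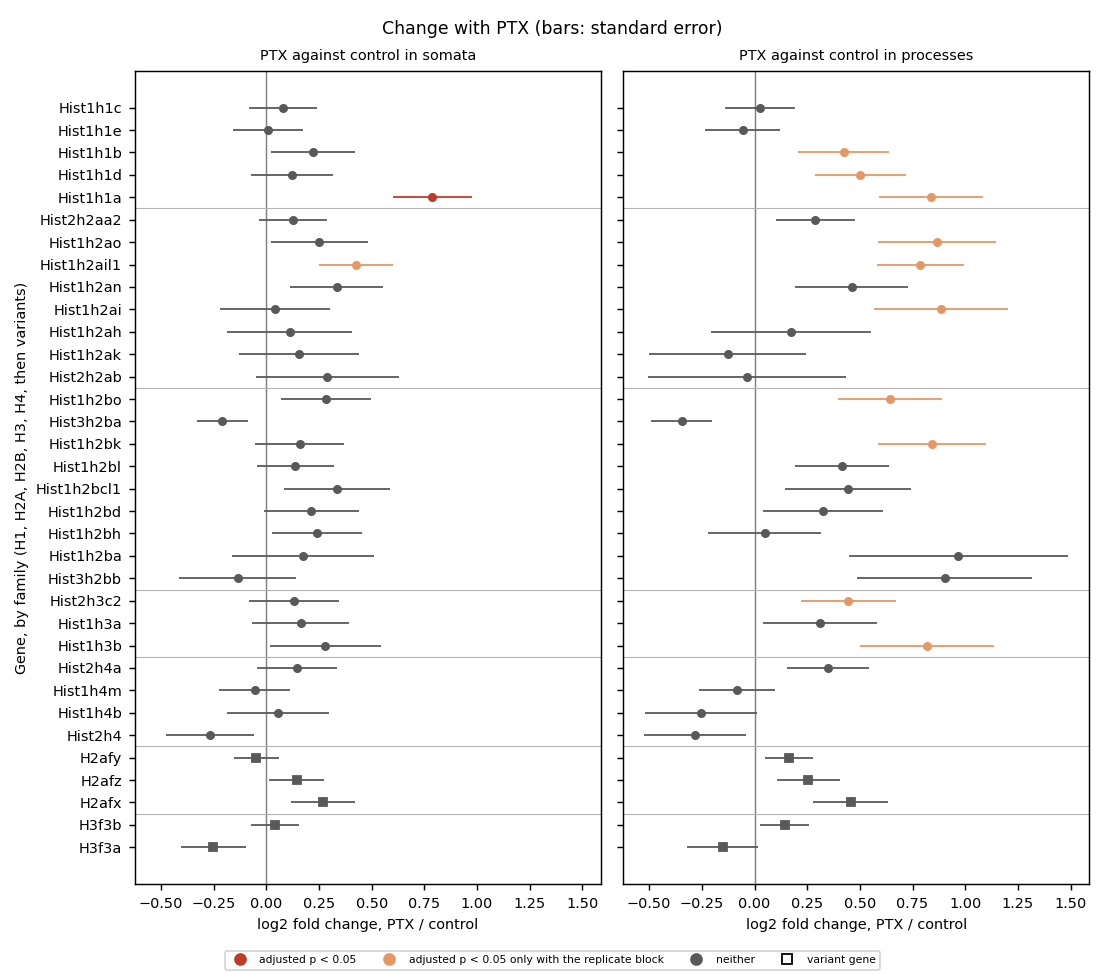
Log2 fold change of PTX against control for each tested histone gene in somata (left) and processes (right), with bars of 1 standard error, squares for variants and colours for adjusted p below 0.05 without or only with the replicate block. Hist1h1a in somata is the one gene called without the block, and in processes 10 cluster genes, all to the right of 0, are called only with it.

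In processes, the same question gave a median log2 fold change with PTX of 0.42 over the 29 cluster genes and 0.16 over the 5 variants, against -0.01 over all genes. No histone gene passed the quasi-likelihood test, against 1.64% of all genes that rose and 2.1% that fell. With the replicate block 10 cluster genes rose and none fell, against 5.1% and 6.09% of all genes. That fit takes 1 replicate difference per gene for all 4 groups. The observed median difference over the cluster genes was 0.05 in processes control and 0.38 in processes PTX. The likelihood ratio test called 4 higher (background 2.96%) and DESeq2 2 higher (background 2.51%). The 10 were 3 of 5 H1, 3 of 8 H2A, 2 of 9 H2B, 2 of 3 H3 and none of 4 H4 genes. The count moved with single libraries. In alternatives chosen after seeing the data, the blocked fit lost most of the 10 without processes control replicate 2 or either processes PTX library. It kept most of them without processes control replicate 1 and all of them without any one somata library. The share of all genes that rose was also below 5.1% without any one process library.

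Among the linker genes of the processes, Hist1h1a was at 4.01 and 3.41 CPM in control and 6.55 and 6.74 CPM in PTX. Its log2 fold change was 0.84 (SE 0.25), with an adjusted p of 0.0989 without and 0.0255 with the block. Both PTX libraries were the higher, as in somata. Hist1h1b was at 21.2 and 25.8 CPM in control and 27.6 and 35.3 CPM in PTX (0.42, SE 0.22, adjusted p = 0.372 and 0.0236 with the block). Hist1h1d was at 19.8 and 21.4 CPM and 27.2 and 31.1 CPM (0.50, SE 0.22, adjusted p = 0.274 and 0.0187 with the block). The groups of both genes were apart. Hist1h1c at 114 and 124 CPM against 109.7 and 132 CPM (0.03) and Hist1h1e at 50.5 and 49.2 CPM against 39.5 and 56.2 CPM (-0.06) overlapped. The sign of Hist1h1e turned with the scaling (0.0034 with library size only) and with the library left out (-0.34 to 0.17).

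The 3 H2A genes that the blocked fit called are outside the naming rule and were named after their values were seen. Hist1h2ail1 had the smallest adjusted p of the 34 genes without the block, with levels of 9.03 and 8.10 CPM in control and 13.4 and 16.1 CPM in PTX (log2 fold change 0.79, SE 0.21, adjusted p = 0.067 and 0.00524 with the block). Hist1h2ao was at 8.47 and 7.05 CPM and 11.8 and 16.4 CPM (0.87, SE 0.28, adjusted p = 0.134 and 0.00463 with the block). Hist1h2ai, whose log2 fold change was 0.89 (SE 0.32, adjusted p = 0.182 and 0.00783 with the block), is the divergent neighbour of Hist1h2bo. In all 3 both PTX libraries lay above both controls.

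Among the H2B genes, Hist1h2bo was at 15.7 and 15.6 CPM in processes control and 21 and 27.8 CPM in processes PTX (log2 fold change 0.64, SE 0.25, adjusted p = 0.214 and 0.0059 with the block). Hist1h2bk, the H2B gene with the octamer 48 bases before its start, is outside the naming rule and was at 6.69 and 9.28 CPM and 15.2 and 13.5 CPM (0.84, SE 0.26, adjusted p = 0.11 and 0.00407 with the block). The 2 genes called with the block thus included 1 with and 1 without an octamer in its window. Hist3h2ba of cluster 3 went the other way, at 19.5 and 17.6 CPM in control and 14.1 and 15.1 CPM in PTX. Its log2 fold change was -0.35 (SE 0.14, adjusted p = 0.257 and 0.129 with the block), and it was the one cluster gene of 29 whose PTX libraries both lay below the controls.

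The H3 gene Hist2h3c2 was at 52.6 and 54.6 CPM in processes control and 58.6 and 87.1 CPM in processes PTX (log2 fold change 0.44, SE 0.23, adjusted p = 0.362 and 0.0196 with the block). Replicate 2 of PTX stood well above the other 3 libraries, and without it the log2 fold change was 0.13. Hist1h3b, named after its values were seen, had a log2 fold change of 0.82 (SE 0.32, adjusted p = 0.22 and 0.0144 with the block). The H4 genes divided. Hist2h4a was at 118 and 117 CPM against 122 and 177 CPM (0.35, SE 0.19, adjusted p = 0.413 and 0.0611 with the block), while Hist1h4m was at 36.2 and 32.1 CPM against 25.6 and 38.6 CPM (-0.08). Hist1h4b and Hist2h4, outside the naming rule, had log2 fold changes of -0.25 and -0.28, none of the 4 passed the test, and the family median of H4 was -0.17 against 0.42 for H1, 0.38 for H2A, 0.44 for H2B and 0.44 for H3.

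The median log2 fold change with PTX was smaller over the variants of the processes (0.16) than over the cluster genes (0.42), but H2afx lay above both. H2afx was at 11.2 and 9.16 CPM in control and 14.2 and 13.7 CPM in PTX (log2 fold change 0.46, SE 0.18, adjusted p = 0.219 and 0.103 with the block). H2afy was at 31.7 and 31.7 CPM against 33.5 and 37.4 CPM (0.16), and H2afz at 14.9 and 17.4 CPM against 18.8 and 19.7 CPM (0.26). In these 3 genes both PTX libraries were above both controls. H3f3a at 20.3 and 25.6 CPM against 18.6 and 22.6 CPM (-0.15) and H3f3b at 110.1 and 126 CPM against 122 and 138 CPM (0.14) overlapped.

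The sums of the cluster genes, 593 and 611 CPM in processes control and 617 and 813 CPM in processes PTX, did not overlap, with a narrow gap between the nearest libraries. As a share of all counts they overlapped, at 0.0288% and 0.0344% in control and 0.0317% and 0.0464% in PTX. Of the counts outside the mitochondrial genome they took 0.105% and 0.111% in control and 0.112% and 0.147% in PTX, again with a narrow gap. Across the cluster genes of the processes, 17 of 29 had both PTX libraries above both controls and 1 had both below, against 20.1% and 22.3% of all genes. Within replicate 1 the median PTX minus control difference in log2 CPM was 0.27, with 19 of 29 genes higher, and within replicate 2 it was 0.53, with 25 of 29 higher. In somata the same medians were 0.11 and 0.14, each with 23 of 29 higher. All genes had medians near 0 in the 4 pairs, with 48% to 50% higher. The sign of the median over all cluster genes was thus shared by both replicate numbers, and its size in processes differed between them. The H4 genes did not share it, with medians of -0.35 and 0.09 in processes and 0.04 and -0.03 in somata. Medians of the other families were above 0 in all 4 pairs.

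Genes of S phase and of other cell types also differed with PTX. Of 24 tested genes of DNA replication and mitosis, 1 rose with PTX in somata (Cdk1, the mitotic kinase, log2 fold change 0.98, adjusted p = 0.0221) and 5 rose in processes, against 2.09% and 1.64% of all genes. These 5 were Top2a (1.01, adjusted p = 0.00472), Pcna (0.72, 0.0283), Rrm1 (0.65, 0.0444), Cdk1 (1.66, 0.00692) and Ccnb1 (1.27, 0.0203). With the replicate block 12 rose in somata and 13 in processes, against 7.21% and 5.1% of all genes, and none fell. The summed level was 251 and 283 CPM in somata control, 295 and 406 in somata PTX, 324 and 384 in processes control and 523 and 594 in processes PTX, higher with PTX in both compartments. The proliferation marker Mki67 had 987 and 1247 reads in somata control and 1466 and 1678 in somata PTX, and 576 and 638 against 877 and 1132 in processes. Of 8 neuron markers, 2 rose and 2 fell with PTX in somata, against 2.09% and 1.5% of all genes. In processes 2 rose and 1 fell, against 1.64% and 2.1%. Among them Camk2a fell in both compartments (-1.13 and -1.45) and Gad2 of inhibitory neurons rose in both (0.92 and 0.92). Slc17a7, also a neuron marker, was lower with PTX in somata (263 and 256 CPM in control, 214 and 198 CPM in PTX). In processes it was higher with PTX (171 and 130 CPM in control, 261 and 240 CPM in PTX). Of 8 astrocyte markers none was called without the block. With it Aqp4 fell in somata (-0.50, adjusted p = 0.000663), against 6.79% of all genes. Slc1a3 rose in processes with the block (0.40, adjusted p = 0.0171), against 5.1% of all genes. The part of these genes and cells in the histone values was not tested.

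Whether PTX acted differently on processes than on somata was tested as an interaction, which called no histone gene. Of 14309 genes it also called none (0%), and 0 of 34 histone genes had an unadjusted p under 0.05, against 572 of all genes. The likelihood ratio test (0.028% of all genes), DESeq2 (0.028%) and the blocked fit (0.105%) also called no histone gene, and 4 had an unadjusted p under 0.05 in the last of these. The 4 largest values were those of Hist3h2bb (log2 1.04, SE 0.50), Hist1h2ai (0.84, SE 0.41), Hist1h2ba (0.79, SE 0.62) and Hist1h2bk (0.68, SE 0.33), each a larger PTX effect in processes. The median over the cluster genes was 0.15, with 20 of 29 above 0. A larger PTX effect in processes than in somata was therefore not shown for any histone gene at this depth.

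The next comparison set processes against somata in control cultures, where 47.7% of all genes differed. The scaling matters here: with library size only the median log2 fold change of all genes was -1.86, whereas with TMM it was -0.05. With library size only all 34 histone genes were called lower in processes, as were 13271 of all 14309 genes. Most genes thus lay below 0 under that scaling. Values below are after TMM scaling. Of 34 histone genes, 1 was higher in processes and 3 were lower, against 25.8% and 21.9% of all genes. The 3 lower genes all code for H2B, and the family medians were -0.07 for H1, -0.18 for H2A, -0.45 for H2B, -0.36 for H3 and 0.36 for H4, where H4 alone was above 0 and turned below 0 for its members with library size only.

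Hist1h4m, an H4 gene, was the one called higher, at 22.7 and 26.4 CPM in somata control and 36.2 and 32.1 CPM in processes control (log2 fold change 0.48, SE 0.17, adjusted p = 0.0431), a direction that library size only turned to -1.34. Both process libraries lay above both somata libraries. The call was lost without either control library of somata or of processes or either somata PTX library (0.37 to 0.59), with upper quartile scaling (0.27) and with a minimum of 10 reads in every library (0.41).

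Among the H2B genes, Hist3h2ba was at 23.2 and 27.5 CPM in somata control and 19.5 and 17.6 CPM in processes control (log2 fold change -0.45, SE 0.13, adjusted p = 0.0164). Hist3h2bb, its neighbour in cluster 3, had 55 and 55 reads in somata control and 10 and 7 in processes control, or 2.34 and 2.15 CPM against 1.12 and 0.822 CPM (-1.20, SE 0.37, adjusted p = 0.0206). Hist1h2ba, a testis type of H2B, had 45 and 70 reads in somata and 7 and 10 in processes, or 1.91 and 2.74 CPM against 0.781 and 1.17 CPM (-1.25, SE 0.46, adjusted p = 0.045). The libraries of the 2 compartments did not overlap in the 3 genes. All 3 calls were lost with DESeq2. Hist3h2ba was also lost without somata control replicate 2 (-0.33) or processes control replicate 2 (-0.38), Hist3h2bb without somata control replicate 1 or processes control replicate 2, and Hist1h2ba without somata control replicate 2 or any library of somata PTX or processes control (-0.97 to -1.57).

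The replicate block called 4 histone genes higher and 8 lower in processes of control cultures, against 29.8% and 28% of all genes. The genes it added, several of them outside the naming rule and named after their values were seen, were as follows. Higher were Hist1h1e (0.31, blocked adjusted p = 0.0152), the H4 gene Hist1h4b (0.49, 0.00121) and H3f3a (0.35, 0.0181), each below 0 with library size only. Lower were the H2A gene Hist1h2ao (-0.57, 0.0119), the H2B genes Hist1h2bk (-0.61, 0.0054) and Hist1h2bo (-0.54, 0.00286), the H3 gene Hist1h3a (-0.51, 0.00235) and the H4 gene Hist2h4a (-0.38, 0.00698). Without processes control replicate 2 the blocked fit called 4 genes in place of 12. Of the 29 cluster genes, 3 lay wholly above somata and 11 wholly below, against 35.9% and 39% of all genes.

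**Figure D4:**
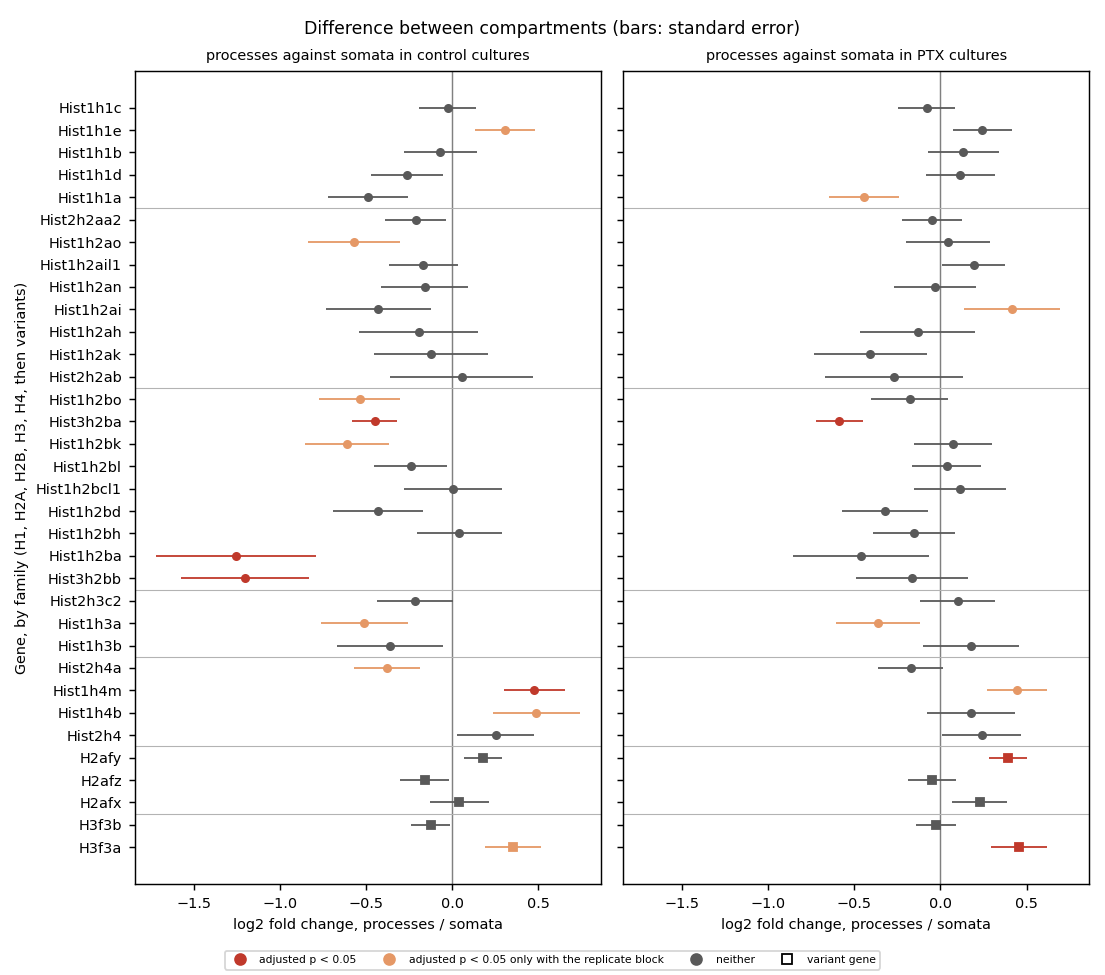
Log2 fold change of processes against somata after TMM scaling for each tested histone gene in control (left) and PTX cultures (right), with bars of 1 standard error, squares for variants and colours for adjusted p below 0.05 without or only with the replicate block. Hist3h2ba is called lower on both sides, and Hist1h4m (left) and H2afy and H3f3a (right) are called higher, a direction that turned to -1.34, -1.43 and -1.37 with library size only.

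In PTX cultures, where 49.8% of all genes differed between the compartments, 2 variants were higher in processes and 1 cluster gene was lower, against 25.7% and 24% of all genes. Hist3h2ba was at 21.5 and 22.4 CPM in somata PTX and 14.1 and 15.1 CPM in processes PTX (log2 fold change -0.59, SE 0.13, adjusted p = 0.00432). This call held in all 17 alternatives, with a highest adjusted p of 0.0294. H2afy was at 26 and 28.2 CPM in somata and 33.5 and 37.4 CPM in processes (0.39, SE 0.11, adjusted p = 0.0136), a direction that library size only turned to -1.43. H3f3a was at 13.5 and 16.7 CPM in somata and 18.6 and 22.6 CPM in processes (0.45, SE 0.16, adjusted p = 0.0388), turned to -1.37 by library size only.

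Both variants had process libraries above the somata libraries, also in control cultures, where neither was called (H2afy 0.18, adjusted p = 0.211; H3f3a 0.35, adjusted p = 0.0936). The call for H2afy was lost without somata PTX replicate 1 (0.34) or processes PTX replicate 2 (0.31) and with upper quartile scaling (0.21). That for H3f3a was lost without either of these libraries (0.31 and 0.30) or either somata control library (0.46), with DESeq2, with upper quartile scaling (0.28) and with 10 reads in every library (0.39). H2afx (0.23), H2afz (-0.05) and H3f3b (-0.03) did not pass. Hist1h4m was just outside the threshold (0.45, adjusted p = 0.0536), and the median over the cluster genes was -0.03 against -0.21 in control cultures. Both compartment comparisons use separate libraries, and their difference is the interaction above, which called no gene. The block added Hist1h2ai and Hist1h4m as higher (0.42 and 0.45, blocked adjusted p = 0.0484 and 0.00533, turned to -1.40 and -1.37 by library size only) and Hist1h1a and Hist1h3a as lower (-0.44 and -0.36, 0.0375 and 0.0155), against 30% and 29.6% of all genes, and it called 4 genes without somata PTX replicate 2 and 1 without processes PTX replicate 2, in place of 7. Of the 29 cluster genes, 2 lay wholly above somata and 3 wholly below, and 3 of the 5 variants lay above, against 36.2% and 39.7% of all genes.

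Other genes of the pathway were read from lists. Of 14 tested genes that process histone mRNA, Cstf2, a cleavage factor subunit, rose with PTX in somata (log2 fold change 1.10, adjusted p = 0.000872) and in processes (0.56, adjusted p = 0.0462), and Lsm11, a part of the U7 particle that cuts histone pre-mRNA, fell in processes (-0.56, adjusted p = 0.0324). The medians were 0.06 and 0.17. Of all genes, 2.09% rose and 1.5% fell with PTX in somata, and 1.64% rose and 2.1% fell in processes. These shares apply to every PTX count of this paragraph, so a short list without a call says little. In control cultures 2 of the 14 were higher and 5 lower in processes, against 25.8% and 21.9% of all genes, among the lower ones Slbp (-0.37, adjusted p = 0.0418) and Npat, the activator of histone gene transcription (-0.52, adjusted p = 0.0078). Both higher ones, Lsm11 and Casp8ap2, turned below 0 with library size only. None of 17 histone chaperones was called with PTX, and in control cultures 6 were higher in processes and none was lower, against the same 25.8% and 21.9%. Among them were Atrx (1.35) and Nap1l1 (1.42), turned to -0.45 and -0.38 by library size only, and Anp32e (1.98), which stayed above 0 (0.18), and the other 3 (Hira, Ubn2 and Supt16h) also turned below 0. Of 5 other variants tested, none was called with PTX, and H2afv (0.73) and H3f3c (0.52) were higher in processes of control cultures, turned to -1.09 and -1.28 by library size only.

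The replicate number went with the level of the histone genes. Of the 34 genes tested, 17 were higher in replicate 2 than in replicate 1 in all 4 groups and none was lower in all 4, against 14.9% and 16.7% of all genes. The median difference in log2 CPM over the 29 cluster genes was 0.37 in somata control, 0.40 in somata PTX, 0.05 in processes control and 0.38 in processes PTX, while over the 5 variants it was 0.06, 0.20, 0.19 and 0.16. Over the same 4 groups 12 of 24 S phase genes and 5 of 8 oligodendrocyte lineage markers were higher in replicate 2, and 5 of 8 neuron markers were lower. What the numbers mark is not given in the sources used here, and the part of these cells in the histone levels was not tested.

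**Figure D5:**
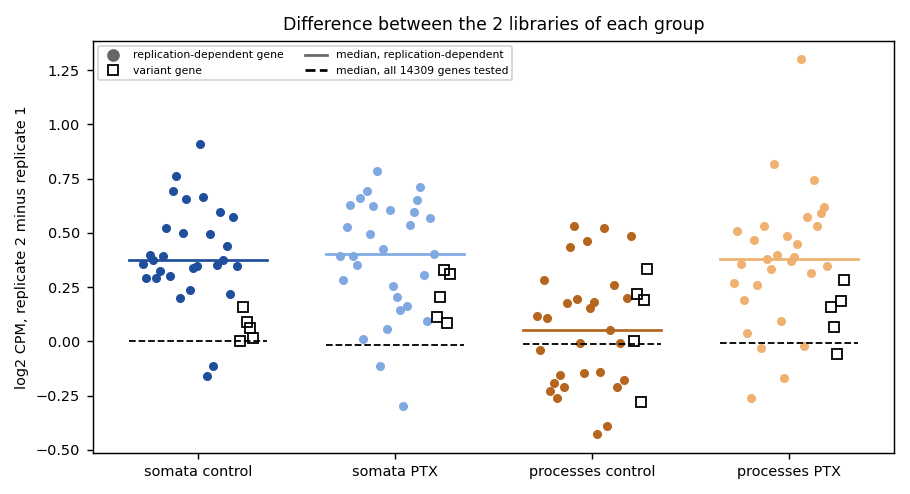
Difference in log2 CPM between replicate 2 and replicate 1 of each group, with a dot for each of 29 cluster genes, a square for each of 5 variants, a solid line at the median of the cluster genes and a dashed line at the median of all 14309 genes. The solid line lies at 0.37, 0.40, 0.05 and 0.38, so that it is near the dashed line in processes control and above it in the other groups.

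By Pearson correlation of log2 CPM with the summed level of the tested cluster genes over the 8 libraries, which share their depth and replicate number, the most alike genes outside the list were Hmox1 (r = 0.95), LOC684773 (0.93), LOC102549061 (0.92), Rab8a (0.92) and Rbmxl1 (0.91). Hmox1 codes for heme oxygenase, Rab8a for a small GTPase and Rbmxl1 for an RNA-binding protein. Members of the list, whose reads enter the sum, held 4 of the 9 highest ranks, with Hist2h3c2 (0.97) at the top, while Hist1h4m (0.15) and Hist3h2ba (0.11) followed the sum least among the cluster genes of the naming rule. These values describe 8 libraries and carry no test.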

How the data were processed

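Counts of 8 libraries were analysed. Per the methods, the authors trimmed the reads, aligned them with Subread to the rat genome Rnor_6.0, assigned them to the Ensembl annotation by featureCounts and added up entries of one symbol, and the deposited counts are whole numbers without normalization. The submitters' processing notes name STAR in place of Subread. How reads with several matching sites were counted is not given in the sources used here, so counts of near-identical histone copies are uncertain one by one, and a few reads more or less per copy may change a call. Deposited tables of the authors' own comparisons hold fold changes and p-values and were not used.

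A gene entered the tests when 2 or more libraries each held over 20 of its reads (14309 of 28909). TMM scaling, glmQLFit and glmQLFTest of edgeR 4.0.16 (R 4.3.3) were applied to all 8 libraries with 1 coefficient per group, and p-values were adjusted by Benjamini-Hochberg over all genes tested (threshold 0.05). A standard error (SE) is the size of the log2 fold change over root F. Log2 CPM used a prior count of 2. Non-overlap means that both libraries of a group lay on one side of both of the other. The scripts were tested on simulated data. Named are the 5 variants, the 8 cluster genes with most reads and every member called, and a gene called only with the block or set beside its family is outside this rule. The members and lists were chosen with earlier results of these data known.

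Libraries of one replicate number were treated as a block, which is an assumption, since the labels do not say what the number marks. Replicate 2 minus replicate 1 differences across genes correlated at r = 0.54 between the somata groups. For the other 5 pairs of groups r was 0.27 to 0.37. A block for the number lowered the common dispersion from 0.0132 to 0.00459. It takes 1 replicate difference per gene for all 4 groups. The observed median over the cluster genes was 0.05 in processes control and 0.37 to 0.40 in the other groups. Blocked p-values rest on that shared difference. Tried instead were DESeq2 1.42.0, the likelihood ratio test, library size or upper quartile scaling, other filters, fewer libraries, no mitochondrial genes and the block.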

Additional observations from a re-analysis of the deposited data

How the results depend on the processing

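Counts of called histone genes (of 34 unless given) moved as follows. For PTX in somata (1) DESeq2 and the fit of only the 4 libraries compared gave 0, the replicate block gave 2, and leaving out 1 library gave 0 to 0. For PTX in processes (0) the likelihood ratio test gave 4, DESeq2 gave 2, no filter gave 9 of 40 and the block gave 10, and leaving out 1 library gave 0 to 1, where the 1 was Hist1h2ail1 without either somata control library. For processes against somata in control cultures (4) DESeq2 gave 1, library size only 34, upper quartile 10, no filter 10 of 40, a minimum of 10 reads per library 2 of 31 and the block 12, and leaving out 1 library gave 0 (without processes control replicate 2) to 5, with 2 without somata control replicate 2 or processes control replicate 1. In PTX cultures (3) library size only gave 34, no filter 6 of 40 and the block 7, and leaving out 1 library gave 1 (without processes PTX replicate 2) to 5 (without processes PTX replicate 1). With the block kept, an alternative chosen after seeing the data, leaving out 1 library gave 0 to 3 for PTX in somata, 1 to 11 for PTX in processes, 4 to 12 between compartments of control cultures and 1 to 8 in PTX cultures. Library size only reversed Hist1h4m in control cultures (-1.34) and H2afy (-1.43) and H3f3a (-1.37) in PTX cultures, with medians of all genes at -1.86 and -1.87. It called 13271 of all 14309 genes lower in control cultures and 13318 in PTX cultures. Counts of this paragraph without a share of all genes beside them are no result about the histone genes. Upper quartile scaling put the median of all genes at -0.25 and -0.23 and the split of all calls between compartments at 2750 higher and 4704 lower, against 3688 and 3135, in control cultures, and at 2904 and 4768, against 3680 and 3441, in PTX cultures. The interaction stayed at 0 in every alternative run, and only the libraries compared was not run for it. The other counts kept within 1.5 times. Without mitochondrial genes no count moved, and a prior count of 0.5 changed a log2 level by 0.149 at most (Hist1h2ba). The cause of these shifts was not tested. Each group had 2 libraries, and the median gene of a process library had 96 to 110 reads.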
